A study of Mus musculus with 12 samples.

Results

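The comparison described here asks whether mouse embryonic stem cells respond to loss of Setdb1 in the same way in 2 culture media. It uses all 12 RNA sequencing libraries of the series, and its quantity is the knockdown change in 2i (knockdown minus control) minus the knockdown change in serum. A positive difference therefore means that a feature went up more, or down less, in 2i. All libraries came from E14 cells of 129/Ola background, grown on gelatin without feeder cells and carrying a lentiviral pLKO.1 shRNA with puromycin selection. The 4 groups were serum with a scrambled shRNA (shScr), serum with an shRNA against Setdb1 (shSetdb1), 2i with shScr and 2i with shSetdb1, each with 3 libraries. The serum medium held fetal bovine serum and LIF, and the 2i medium held N2, B27, LIF, PD0325901 to inhibit MEK and CHIR99021 to inhibit GSK3. Cells were collected after 3 days of selection. The labels name 1 shRNA per target, 1 cell line and no rescue, so an effect of the shRNA other than on Setdb1 cannot be told apart from loss of Setdb1. They do not say whether libraries of a group came from separate cultures, and p-values then measure only the spread between these libraries, which may be technical.

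SETDB1 is a histone methyltransferase that places H3K9 trimethylation. At endogenous retroviruses it is brought to DNA by TRIM28 and the KRAB zinc finger proteins that recognise retroviral sequence, and in embryonic stem cells it is known for keeping many of these elements silent. Cells in 2i are often called naive and are known for low overall DNA methylation, the other silencing mark of these elements. DNA methylation at these elements was not measured here.

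Libraries held 4821181 to 15509401 reads on genes and 4407665 to 8962913 reads on repeat families. The lowest gene count was that of 2i knockdown replicate 3, and the next lowest was 9900012 in serum control replicate 3. Of its group, 2i knockdown replicate 3 was the highest library for some genes below, such as Mndal, and the lowest for others, such as Hip1r. All 10 embryonic stem cell markers were in the gene table, with summed normalised reads (reads over a library's size factor) of 42050 to 83230 per library over the 4 groups. Markers of primitive endoderm, trophoblast, neural cells and mesoderm summed to at most 755 normalised reads in any library. The 6 fibroblast markers summed to 5.78 to 105 in the controls of both media, 44.6 to 66.2 in the serum knockdown and 124 to 766 in the 2i knockdown. Most of the 2i knockdown sum came from Lum alone, with 736, 102 and 542. Thy1 had 2.31, 8.12 and 33.2 there, and 5.78, 24.8 and 17.6 in the 2i controls. The highest value of the remaining markers in the 2i knockdown was 11.5, for Col3a1. Structural RNA (small nuclear RNAs, 7SK, tRNAs and similar families) took 15.6 to 69.5% of repeat reads and varied within groups, from 19.9 to 69.5% in the 2i knockdown alone. In bulk RNA, fewer cells with a transcript and less of it per cell cannot be told apart.

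The target itself fell in both media. Normalised reads of Setdb1 were 2959, 2237 and 1587 in the serum controls and 418, 379 and 409 in the serum knockdown. The 2i controls had 3607, 2724 and 2254, and the 2i knockdown had 837, 610 and 340. Each knockdown library lay below each control library of its medium. On the log2 scale of the deposited values the difference between media was 0.09 (SE 0.47, 95% interval -0.91 to 1.08, limma adjusted p = 1.0).

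The families that passed the test for dependence on the medium were intracisternal A particles (IAPs), class II endogenous retroviruses that are still mobile in mice. Of 1097 repeat families tested, 2 passed for the difference at a limma adjusted p under 0.05 (0.182%), and both were IAP sequences that went up more in 2i. They were IAPEz-int, the internal part of an IAP subtype, and IAPLTR1_Mm, an IAP long terminal repeat. Over the 16 families of the IAP list, the 2i controls held 0.766 times the IAP reads of the serum controls, per gene read, and the 2i knockdown held 4.21 times those of the serum knockdown. IAP and repeat sequences are not printed, because the files and reference tables used here hold no repeat sequence.

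IAPEz-int had 14206, 13448 and 12524 normalised reads in the serum controls and 38122, 39602 and 72959 in the serum knockdown. In 2i it had 9032, 14830 and 9789 in its controls and 183630, 175700 and 215060 after knockdown. The controls of the media overlapped, and every 2i knockdown library lay above every serum knockdown library. The rise was 3.75-fold in serum and 17.1-fold in 2i, and the difference of the log2 changes was 2.28 (SE 0.44, 95% interval 1.35 to 3.21, limma adjusted p = 0.0488).

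IAPLTR1_Mm had 1126, 999 and 1078 normalised reads in the serum controls and 2364, 2516 and 4179 after knockdown. In 2i its controls had 807, 1231 and 722 and its knockdown libraries 11702, 11333 and 16029. This long terminal repeat rose 2.83-fold in serum and 14.2-fold in 2i, with a difference of 2.38 (SE 0.38, 95% interval 1.58 to 3.17, limma adjusted p = 0.011). Between the knockdown groups both families also passed directly, IAPLTR1_Mm at 2.13 (limma adjusted p = 0.000503) and IAPEz-int at 1.99 (limma adjusted p = 0.00283), where 6 of 1097 families passed (0.547%). Between the controls they differed by -0.25 and -0.29, each with a limma adjusted p = 0.517.

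The call for these families changed with the scaling and with single libraries, while the size of the difference moved less. The repeat table as a whole leaned toward 2i: over all families tested the median difference was 0.31, and 70.7% of families had a positive one. IAPLTR1_Mm stood 2.07 and IAPEz-int 1.97 above that median. When each library was centred on its median, which removes the lean, the differences were 2.08 and 1.99 with limma adjusted p = 0.235 and 0.305, and with quantile normalisation they were 1.95 and 1.83 (limma adjusted p = 0.2 and 0.255). With voom on reads without structural RNA they were 1.92 and 1.78 (limma adjusted p = 0.154 and 0.161). With the share of structural RNA as a covariate they were 2.30 and 2.21 and passed (limma adjusted p = 0.00121 and 0.00208). Leaving out 1 library at a time gave differences of 2.22 to 2.63 for IAPLTR1_Mm and 2.12 to 2.58 for IAPEz-int. No family passed without serum control replicate 1 or 3, serum knockdown replicate 1 or 2, or 2i control replicate 1, and IAPLTR1_Mm alone passed without serum control replicate 2, 2i control replicate 3, or 2i knockdown replicate 2 or 3. IAPLTR1_Mm passed in 16 of 25 alternatives and IAPEz-int in 11 of 25, and no alternative gave a difference under 1.92 for the former or under 1.78 for the latter.

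All 16 IAP families had a positive difference, from 0.12 to 2.38 with a median of 1.11, and 9 of them had an unadjusted p under 0.05 in the direction of 2i, as did 91 of all 1097 families (8.3%). These counts fell with the scaling: 3 IAP families had such a p after centring, with quantile normalisation and with voom without structural RNA, beside 42, 42 and 21 of all families, and 15 of the 16 were positive in each. The median change of the list was 1.37 in serum, where 8 families rose, and 2.58 in 2i, where 15 rose. Of all families tested, 3.37% passed in serum and 10.5% in 2i. The list median exceeded the table median under each scaling tried, at 0.81 after centring and 1.61 with the size factors of the gene table. The 9 families include IAPLTR1_Mm and IAPEz-int, and members of the list come from related elements. The list was also chosen with earlier results of these data known, so its counts are no separate support for the difference.

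Other IAP long terminal repeats had smaller differences, none of which passed. Here and below, a call within a medium held in all 6 fits without 1 of that medium's libraries unless the number of fits is given. IAPLTR2_Mm had 893, 979 and 1253 normalised reads in the serum controls, 2209, 2807 and 5185 in the serum knockdown, 481, 757 and 1055 in the 2i controls and 4418, 6178 and 7702 in the 2i knockdown. It rose 3.26-fold in serum (4 of 6 fits) and 7.98-fold in 2i, with a difference of 1.39 (limma adjusted p = 0.49). IAPLTR2a rose 8.19-fold in 2i and stood at 2.67-fold in serum (limma adjusted p = 0.0744), with a difference of 1.58 (limma adjusted p = 0.49). IAPLTR1a_Mm rose 6.96-fold in 2i and 2.38-fold in serum (1 of 6 fits), with a difference of 1.44 (limma adjusted p = 0.423).

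IAPEy-int, the internal part of the IAPEy subtype, had 179, 179 and 252 normalised reads in the serum controls and 577, 737 and 1992 in the serum knockdown. Its 2i libraries were far apart, with 106, 840 and 586 in its controls and 2855, 17837 and 6118 after knockdown. The difference was 1.94 (95% interval -0.04 to 3.93). For IAPLTR3-int and IAPEY3-int, internal parts of other IAP subtypes, the differences were 0.99 and 0.63, with intervals of -0.51 to 2.50 and -0.32 to 1.58, and both rose in both media, IAPLTR3-int in serum in 2 of 6 fits.

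**Figure D1:**
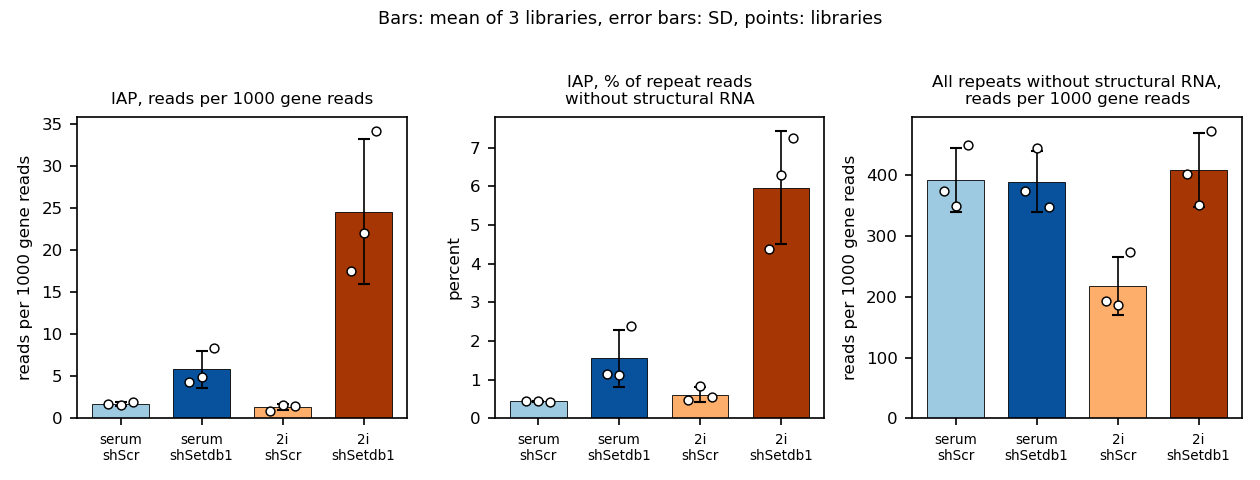
Reads of the 16 IAP families per 1000 gene reads (left), the same reads as a percentage of repeat reads without structural RNA (middle) and all repeat reads without structural RNA per 1000 gene reads (right), with bars for the mean of 3 libraries, error bars for the SD and points for libraries. The IAP bars of the 2i knockdown stand above the other 3 groups on both scales, while total repeat reads were lowest in the 2i controls.

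Because each table carries its own size factors, the IAP list was also counted in raw reads. Per 1000 gene reads its sum was 1.65, 1.55 and 1.95 in the serum controls and 4.28, 4.93 and 8.34 in the serum knockdown. The 2i controls lay between 0.909 and 1.54, and the 2i knockdown libraries were at 17.5, 22.1 and 34.2, and each 2i knockdown library lay above all 9 other libraries. The rise was 3.41-fold in serum and 18.7-fold in 2i. As a share of repeat reads without structural RNA, IAP reads went from 0.440 ± 0.0052% to 1.55 ± 0.735% in serum and from 0.615 ± 0.185% to 5.97 ± 1.46% in 2i (SD, n = 3).

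Of the other class II retroviruses, most MMERVK10C and RLTR10 families rose in both media, and most ETn and MusD families passed in neither. MMERVK10C and its RLTR10 long terminal repeats are known as a further group of SETDB1 targets in these cells. MMERVK10C-int had 4213, 4576 and 3875 normalised reads in the serum controls and 62234, 51784 and 27668 after knockdown, and 1457, 1757 and 1468 in the 2i controls and 31348, 5482 and 7966 after knockdown. It rose 11.2-fold in serum and 9.57-fold in 2i, and its difference was -0.58 (SE 0.66, 95% interval -1.98 to 0.82, limma adjusted p = 0.746). In the knockdown, 2 of the 3 libraries of 2i lay below all those of serum, and so did the controls of 2i. The 9 families of this list had a median difference of -0.03 against 0.31 for all families, none with an unadjusted p under 0.05. The list median was -0.33 after centring and 0.44 with the size factors of the gene table. Of the 9, 7 rose in serum and 9 in 2i. RLTR10C stood lowest at -0.68 and RLTR10D highest at 0.72.

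Early transposons (ETn) and MusD elements, a further class II group, gave no family that passed for the difference on the deposited scale. The 5 families had a median of -0.27 with 2 positive. With the structural RNA covariate the median was 0.30 with all 5 positive, and ETnERV3-int passed at 1.87 (limma adjusted p = 0.0443). Leaving out 1 library moved the median from -0.81 (without 2i knockdown replicate 1) to 0.30 (without 2i knockdown replicate 3), and it was also positive without serum control replicate 3 (0.02) or 2i control replicate 1 (0.075). ETnERV2-int had 52296, 42933 and 24992 normalised reads in the serum controls and 113990, 108380 and 69210 after knockdown, and in 2i 30713, 25371 and 13112 in its controls and 104120, 50006 and 36680 after knockdown. It stood at 2.43-fold in serum (limma adjusted p = 0.152) and rose 2.76-fold in 2i (1 of 6 fits), and its difference was 0.10 (95% interval -1.20 to 1.40), with a sign that changed under several alternatives. ETnERV3-int stood at 1.34 (95% interval -0.34 to 3.02), and 1 library carried much of it: the 2i knockdown had 20363, 4082 and 3672 normalised reads.

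Class I retroviruses, which are gammaretrovirus-like, held both patterns. MMERGLN-int had 1293, 1320 and 1330 normalised reads in the serum controls, 73200, 159310 and 34389 in the serum knockdown, 1059, 2064 and 1386 in the 2i controls and 78531, 27017 and 30974 in the 2i knockdown. It rose 67.7-fold and 30.3-fold, with a difference of -1.01 (SE 0.66, 95% interval -2.41 to 0.40, limma adjusted p = 0.559). The long terminal repeat RLTR1B rose 10.03-fold in serum and 11.1-fold in 2i, with a difference of 0.26 (95% interval -0.79 to 1.32) that turned to -0.03 after centring and -0.29 with quantile normalisation. In both families the knockdown libraries of the media overlapped.

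MuLV-int, the internal part of murine leukaemia virus-like elements, passed in 2i and not in serum, and its difference did not pass. It had 138, 149 and 195 normalised reads in the serum controls and 300, 398 and 241 after knockdown (limma adjusted p = 0.253), and 33.6, 70.5 and 22.7 in the 2i controls and 356, 247 and 304 after knockdown. The knockdown levels of the media overlapped, and the 2i controls were the lower ones (-1.60, limma adjusted p = 0.0133). The difference was 1.57 (95% interval 0.61 to 2.53, limma adjusted p = 0.423). MMVL30-int, the internal part of VL30 elements, stood at 0.05 in serum and 1.99 in 2i (passing in 3 of 6 fits), with a difference of 1.95 (limma adjusted p = 0.49). Its knockdown libraries in 2i spread from 1929 to 10304. Of the 33 class I families 3 were higher in 2i at an unadjusted p under 0.05, beside 91 of all 1097 families (8.3%). The class I median difference was 0.17, or -0.13 after centring, -0.15 with quantile normalisation and -0.02 without serum knockdown replicate 3.

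**Figure D2:**
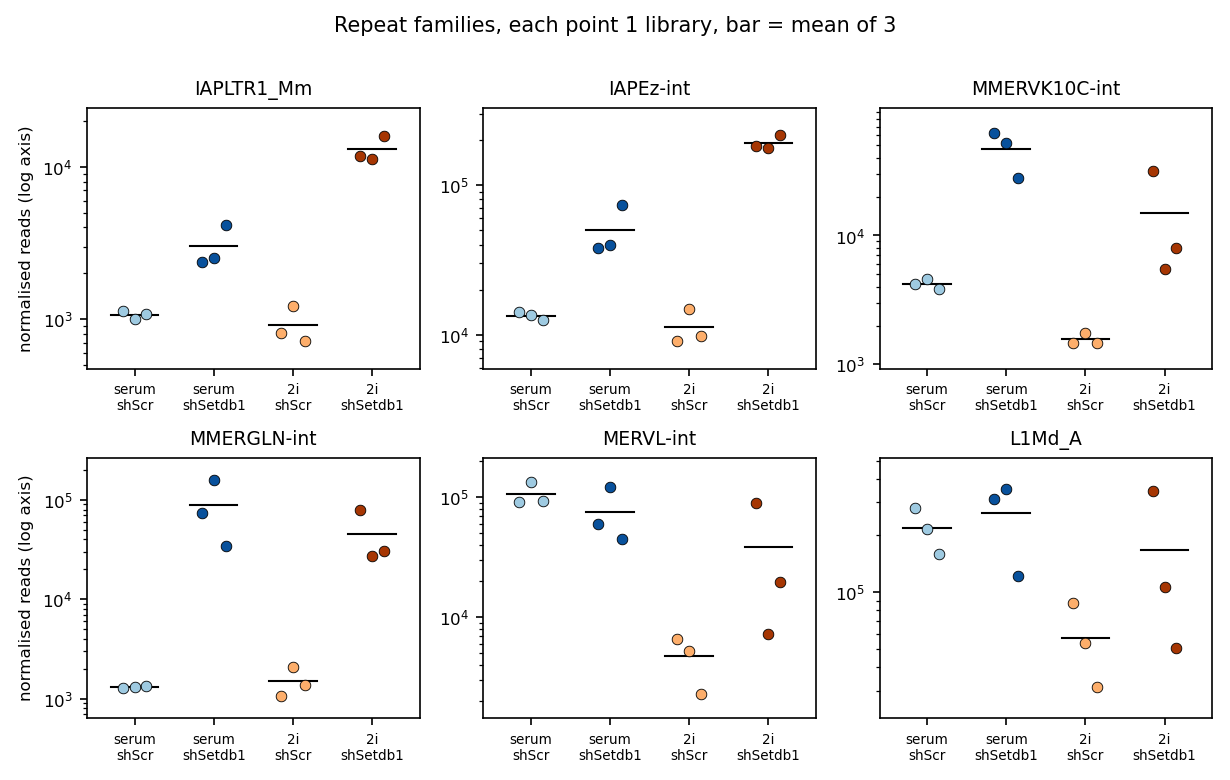
Normalised reads (log axis) of 6 repeat families in each library, grouped by medium and shRNA, with a bar for the mean of 3. IAPLTR1_Mm and IAPEz-int have like controls in both media and knockdown libraries that do not overlap between media, MMERVK10C-int and MMERGLN-int go up in both media, and MERVL-int and L1Md_A have their lowest values in the 2i controls.

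Other families had a difference together with a lower level in the controls of 2i. MERVL, a class III retrovirus whose MT2 long terminal repeats are active at the 2-cell stage of the embryo, was scarce in 2i controls. MERVL-int had 91524, 134110 and 93601 normalised reads in the serum controls and 59424, 120600 and 44884 in the serum knockdown, so that these groups overlapped. In 2i it had 6636, 5193 and 2285 in its controls and 88703, 7284 and 19654 after knockdown, and the highest knockdown library reached the range of serum. The change was -0.61 in serum (limma adjusted p = 0.924) and 2.44 in 2i (limma adjusted p = 0.0271, passing in 3 of 6 fits and at 1.48 without knockdown replicate 1). The difference was 3.05 (SE 0.93, 95% interval 1.07 to 5.03, limma adjusted p = 0.445), or 2.09 without 2i knockdown replicate 1. In the controls MERVL-int was lower in 2i by -4.60 (limma adjusted p = 0.00349).

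MT2_Mm, the long terminal repeat of MERVL, had a difference of 2.13 and MT2C_Mm of 1.32, with intervals of 0.45 to 3.81 and 0.53 to 2.11 (limma adjusted p = 0.49 and 0.423). All 7 MERVL and MT2 families had a positive difference. In 3 of them the unadjusted p was under 0.05, beside 91 of all 1097 families higher in 2i (8.3%). The list median was 0.66. The median was 0.36 without serum knockdown replicate 3 or 2i knockdown replicate 1. After centring 6 of 7 stayed positive, with quantile normalisation 4 and with voom without structural RNA 4. In the controls 5 of the 7 were lower in 2i, as were 182 of all families (16.6%). With the share of structural RNA as a covariate MERVL-int, MT2_Mm and MT2C_Mm passed for the difference.

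Genes transcribed at the 2-cell stage, many of which are known to use MT2 elements as promoters, followed the same layout. Of 31 genes in the list 29 were tested, 25 had a positive difference, and the median was 1.56 against 0.01 for all genes. At an unadjusted p under 0.05, 10 were higher in 2i, beside 239 of all 14487 genes tested (1.65%). None passed after adjustment. In the controls 16 of the 29 were lower in 2i, as were 1.88% of all genes. The count of 10 became 16 without serum control replicate 1, 19 without 2i knockdown replicate 2, and 6 without serum control replicate 2 or serum knockdown replicate 1. The median became 1.08 without 2i knockdown replicate 1, 2.09 without 2i knockdown replicate 2, 3.88 with voom and 0.34 with library weights, where 5 were higher.

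Gm5662 had 2089, 11546 and 4555 normalised reads in the serum controls and 977, 5218 and 6699 in the serum knockdown. In 2i it had 136, 61.4 and 31.7 in its controls and 2992, 528 and 1833 after knockdown. The serum groups overlapped, and the 2i groups did not. Its difference was 4.34 (SE 1.05, 95% interval 2.11 to 6.57, limma adjusted p = 1.0). Gm2016 stood at 3.99 and Dub1a, a deubiquitinase gene, at 2.17. In 2i, Gm5662 passed in 3 of 6 fits, Gm2016 in 2 and Dub1a in 4. Zscan4c and Zscan4d, zinc finger genes of the 2-cell stage, had differences of 2.40 and 2.10, and 2i knockdown replicate 2 was low for both (12.2 and 22.3 normalised reads, against 802 in replicate 1 for each). These genes have near-identical copies, and how reads on copies were counted is not given in the sources used here.

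Mouse L1 elements, autonomous retrotransposons, summed to their lowest level in the 2i controls. Per 1000 gene reads the 16 mouse L1 families summed to 55.4 ± 8.23 and 69.3 ± 29.2 in the serum control and knockdown groups and to 21.1 ± 3.29 and 62.0 ± 28.3 in those of 2i (SD, n = 3). All 16 families had a positive difference, with a median of 0.78, and 2 had an unadjusted p under 0.05, L1_Mus3 at 0.90 and L1_Mur2 at 0.75. Of all families 8.3% were higher at that threshold. With the structural RNA covariate 13 L1 families had such a p and 2 passed, beside 196 higher and 12 passing of all families. The L1 median was 0.46 without serum knockdown replicate 3, 0.47 without 2i knockdown replicate 1, 0.48 after centring and 0.28 with voom without structural RNA, where 14 were positive. For L1Md_A the difference was 1.07 (95% interval -0.79 to 2.93), or 1.68 with that covariate, where it passed (limma adjusted p = 0.0189). It was 0.93 for L1Md_T (95% interval -1.01 to 2.87), which turned to -0.20 with quantile normalisation. In the 2i knockdown, L1Md_A had 344630, 106920 and 50426 normalised reads, from within the range of the 2i controls (31429 to 87365) to within that of the serum knockdown (121310 to 352720).

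The total amount of repeat RNA had the same layout. Repeat reads without structural RNA, per 1000 gene reads, were 374, 350 and 450 in the serum controls and 374, 444 and 348 in the serum knockdown. The 2i controls had 193, 186 and 273, and the 2i knockdown 401, 351 and 473. All 2i control libraries lay below all libraries of the other groups. The total changed 0.994-fold in serum and 1.88-fold in 2i, and between the knockdown groups the ratio of 2i to serum was 1.05.

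Several long terminal repeat families without a passing change in serum shared this layout. RLTR14-int had 1125, 959 and 1315 normalised reads in the serum controls, 1368, 1585 and 1148 in the serum knockdown, 405, 582 and 475 in the 2i controls and 1315, 1383 and 1232 in the 2i knockdown. It rose 2.69-fold in 2i, and its difference was 1.13 (95% interval 0.47 to 1.80, limma adjusted p = 0.423). RLTR9B2 rose 4.81-fold in 2i and stood at 1.65-fold in serum, with a difference of 1.32 (95% interval 0.50 to 2.14). Of the 80 other RLTR families tested, 12 were higher in 2i at an unadjusted p under 0.05, beside 91 of all 1097 families (8.3%). The median difference of the 80 was 0.33. After centring, with quantile normalisation and with voom without structural RNA the count was 6, 6 and 3, and the median 0.03, 0.11 and -0.09. The count was also 6 without 2i control replicate 1.

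MaLR elements, old non-autonomous retrovirus relatives, had 11 of 93 families higher at that threshold, beside 91 of all 1097 families (8.3%). The MaLR median was 0.48, with MLT1F-int at 1.46 and ORR1B2-int at 1.12. Under the same 3 scalings the MaLR count was 6, 5 and 3 and the median 0.19, 0.13 and 0.0053, with 47 of 93 positive in the last. The MaLR count was 20 without serum control replicate 2, 19 without 2i control replicate 2 or 2i knockdown replicate 3, 7 without serum control replicate 1 or 2i knockdown replicate 1, and 6 without serum knockdown replicate 3. The 32 SINE families had a median of 0.16 with none under that threshold, and their median was -0.13, -0.19 and -0.35 under those scalings. Structural RNA families had a median of 0.88 with 13 of 77 higher (2 after centring or quantile normalisation), among them tRNA-Leu-CTG at 1.56, tRNA-Arg-CGA at 1.59 and tRNA-Lys-AAA at 1.48. That count was 36 without 2i control replicate 3, 34 without 2i knockdown replicate 1, 7 without serum control replicate 1, serum knockdown replicate 1 or 2i control replicate 1, and 5 without 2i control replicate 2 or 2i knockdown replicate 3. On the deposited scale 13 of 1097 families were lower in 2i at an unadjusted p under 0.05 (1.19%), among them the old families LTR85c at -1.71 and MER112 at -1.42, and none of them passed. The balance of 91 higher and 13 lower reversed with the scaling, to 42 and 63 after centring, 42 and 71 with quantile normalisation and 21 and 76 with voom without structural RNA. Without 2i knockdown replicate 1 it was 102 and 57, without 2i control replicate 1 60 and 8, and without serum control replicate 3 63 and 6. The count higher over all families was 135 without serum control replicate 2, 114 without 2i control replicate 2 and 115 without 2i knockdown replicate 3. It was 110 without 2i control replicate 3, 61 without serum control replicate 1, 62 without serum knockdown replicate 1 and 70 without serum knockdown replicate 3.

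**Figure D3:**
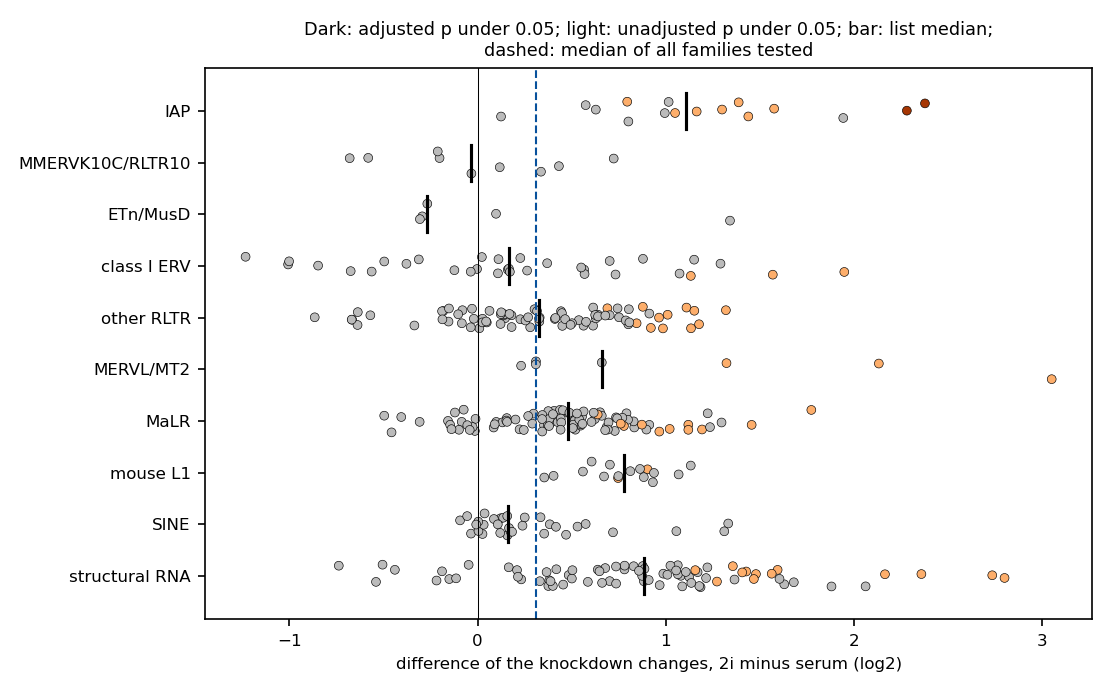
Difference of the knockdown changes (2i minus serum, log2) of each repeat family by list, 1 point per family. The dashed line is the median of all families (0.31), list medians are bars, and the 2 dark points at 2.28 and 2.38 are IAPEz-int and IAPLTR1_Mm.

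Nearly all families that passed in serum also passed in 2i, while most that passed in 2i did not pass in serum. In serum 37 families passed and in 2i 115, of which 35 passed in both, 94.6% of those of serum and 30.4% of those of 2i, all with the same sign. Over these 35 the difference ran from -1.23 to 2.38 with a median of 0.23, and 6 had an unadjusted p under 0.05, all higher in 2i. Of the 80 that passed in 2i alone, 73 had the same sign in serum. An unadjusted p under 0.05 for the difference was found in 35 of them, and in 104 of all 1097 families. Passing in 2i and not in serum selects for such a difference, so the 35 are no separate support for it. Without 2i control replicate 1 the count in 2i was 71. Centring gave 92 in 2i, 67 of them higher, and quantile normalisation 156, 74 of them higher, where the deposited scaling gave 114 higher and 1 lower. Across all 1097 families Pearson's r between the 2 changes was 0.529 and Spearman's rho 0.226, a description over families that share libraries.

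**Figure D4:**
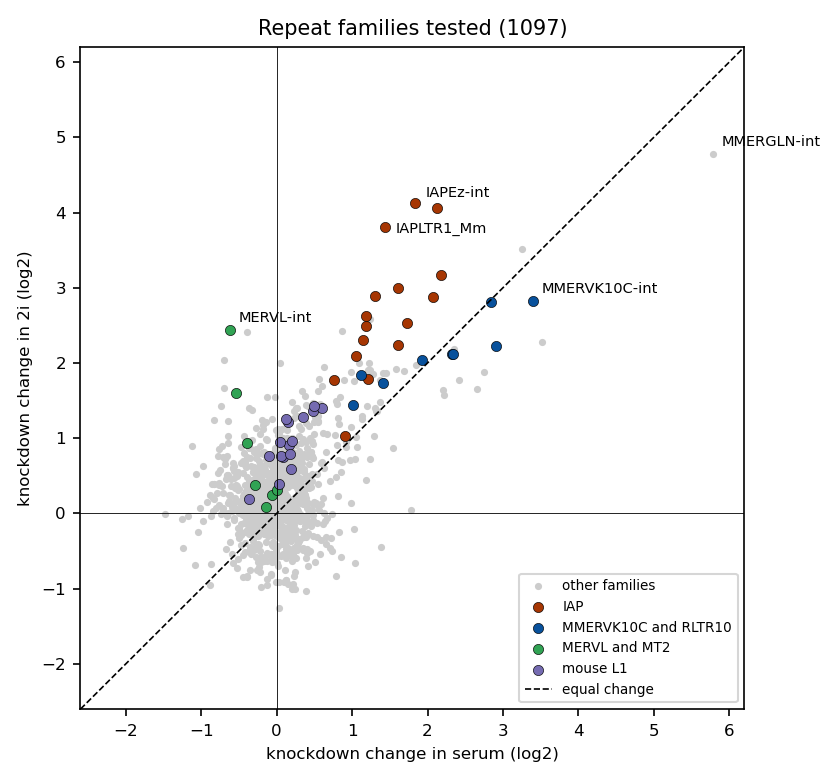
Knockdown change in 2i against that in serum (log2) for the 1097 repeat families tested, with a dashed line of equal change. IAP families lie above the line at positive values on both axes, MMERVK10C and RLTR10 families lie along it, and MERVL-int lies above it with a serum change of -0.61.

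No gene passed for the difference. Of 14487 genes tested, 0 had a limma adjusted p under 0.05 (0%), and the smallest adjusted p was 0.939. At an unadjusted p under 0.05 there were 404, 239 higher in 2i (1.65%) and 165 lower (1.14%), and voom on recovered reads gave 227 and 134 with 0 passing. If no gene differed, a fraction of about 0.05 would be expected under that threshold. The 404 of 14487 are a smaller share, so their number alone is no sign of dependence on the medium. Without 2i knockdown replicate 1 the counts were 695 and 536, without serum knockdown replicate 2 they were 189 and 78, and with library weights 1169 and 1188. The median standard error of a gene's difference was 0.51. Within media 94 genes passed in serum (0.649%) and 184 in 2i (1.27%). Of these 60 passed in both, 63.8% of those of serum and 32.6% of those of 2i, all with the same sign and with a median difference of 0.08. Of the 34 that passed in serum alone 33 had the same sign in 2i, and of the 124 that passed in 2i alone 115 had the same sign in serum. Leaving out serum control replicate 1 or 3 gave 37 or 58 genes in serum, and leaving out serum knockdown replicate 2 or 3 gave 43 or 60. Leaving out 2i control replicate 1 or 2 gave 99 or 111 genes in 2i, leaving out 2i knockdown replicate 3 gave 104, and voom gave 114.

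Genes with the strongest rise in both media gave differences that did not pass. Clec2i, a C-type lectin seen by natural killer cells, had 0 reads in all 6 control libraries, 1243, 1366 and 1032 normalised reads in the serum knockdown and 1263, 337 and 454 in the 2i knockdown. Its difference was -0.995 (95% interval -2.16 to 0.17). Mmp12, a macrophage elastase, had a difference of 0.92 (95% interval -0.38 to 2.21), Akr1c21, an aldo-keto reductase, of 0.80 (-0.45 to 2.06) and Stk31, a germ cell kinase gene that the controls also express, of 0.44 (-0.56 to 1.45). Each interval includes 0 and also differences of over 1 log2 unit, so these data do not show that the responses were equal.

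Among the genes with the smallest unadjusted p on the side of 2i, several were low in 3 of the 4 groups. Lum, a proteoglycan of the extracellular matrix and 1 of the fibroblast markers above, had 0 reads in the serum controls, 6.85, 5.05 and 2.88 normalised reads in the serum knockdown, 0, 2.76 and 0 in the 2i controls and 736, 102 and 542 in the 2i knockdown. The difference was 3.36 (SE 0.68, 95% interval 1.91 to 4.81, unadjusted p = 0.000171, limma adjusted p = 1.0). Kcnf1, a potassium channel subunit, had 0 to 9.77 in the serum controls, 0.959 to 18.3 in the serum knockdown, 0 to 15.9 in the 2i controls and 220, 158 and 315 in the 2i knockdown, with a difference of 2.73. Popdc3, a membrane protein of the Popeye domain family, had 149, 30.5 and 119 in the 2i knockdown and at most 12.4 elsewhere, with a difference of 2.60. In each of these genes every 2i knockdown library lay above all 9 other libraries. They were picked by their difference in the same libraries, so this describes them and is no separate support.

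Bche, butyrylcholinesterase, was expressed in all groups: it had 129, 102 and 55.6 normalised reads in the serum controls, 113, 131 and 60.4 in the serum knockdown, 103, 89.0 and 37.6 in the 2i controls and 560, 445 and 353.96 in the 2i knockdown. It rose 5.91-fold in 2i, against 1.06-fold in serum, with a difference of 2.06 (SE 0.51). Nsg2, a neuronal endosomal protein, rose 9.55-fold in 2i and stood at 1.64-fold in serum, with a difference of 1.69. Akr1c12, another aldo-keto reductase, rose 56.5-fold in 2i and stood at 6.28-fold in serum, with a difference of 2.50. All 3 had a limma adjusted p of 1.0 for the difference.

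On the other side, Cthrc1, a secreted protein with collagen repeats, had the smallest p of all genes. It had 1.09, 0 and 2.14 normalised reads in the serum controls and 371, 787 and 448 in the serum knockdown, and 0, 0.690 and 0 in the 2i controls and 66.1, 19.3 and 38.7 in the 2i knockdown. It rose in both media (in 2i in 1 of 6 fits), and the serum knockdown libraries were all above those of 2i. Its difference was -2.69 (SE 0.50, 95% interval -3.75 to -1.64, unadjusted p = 6.48e-05, limma adjusted p = 0.939). With library weights, Cthrc1 passed at -3.43 (limma adjusted p = 0.00539).

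Hip1r, an endocytic adaptor, had 69.5, 110 and 119 normalised reads in the serum controls and 533, 508 and 406 in the serum knockdown, and 57.1, 132 and 107 in the 2i controls and 139, 114 and 52.5 in the 2i knockdown. Only the serum groups were apart, and Hip1r rose in serum (4.85-fold, 3 of 6 fits) with a difference of -1.91. Igf2bp3, an RNA-binding protein of fetal tissue, had 421, 410 and 602 normalised reads in the serum controls, 1551, 1209 and 973 in the serum knockdown, and 1618 to 2623 in all 6 libraries of 2i. It rose in serum (2.61-fold, 1 of 6 fits) toward the level of 2i, and its difference was -1.62. Nkx1-2, a homeobox gene, was expressed mainly in 2i controls. It had at most 8.88 normalised reads in any serum library, 592, 291 and 523 in the 2i controls and 112, 16.2 and 11.1 after knockdown. The fall in 2i was -2.82 and the difference -2.47. In serum Nkx1-2 had too few reads for a like fall to show.

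Further genes on that side were Bdh1, a ketone body enzyme, at -1.58, Gramd1a, a sterol transfer protein, at -1.40, and Sema4c, a semaphorin, at -1.91. Others were Pdzrn3, a ubiquitin ligase, at -1.45, Abp1, an amine oxidase, at -1.51, and Chst1, a sulfotransferase that rose in serum (2 of 6 fits), at -1.503. None passed. All 6 kept their sign in every alternative in which they were tested, which is little support, as they were picked by a small p in the same data.

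**Figure D5:**
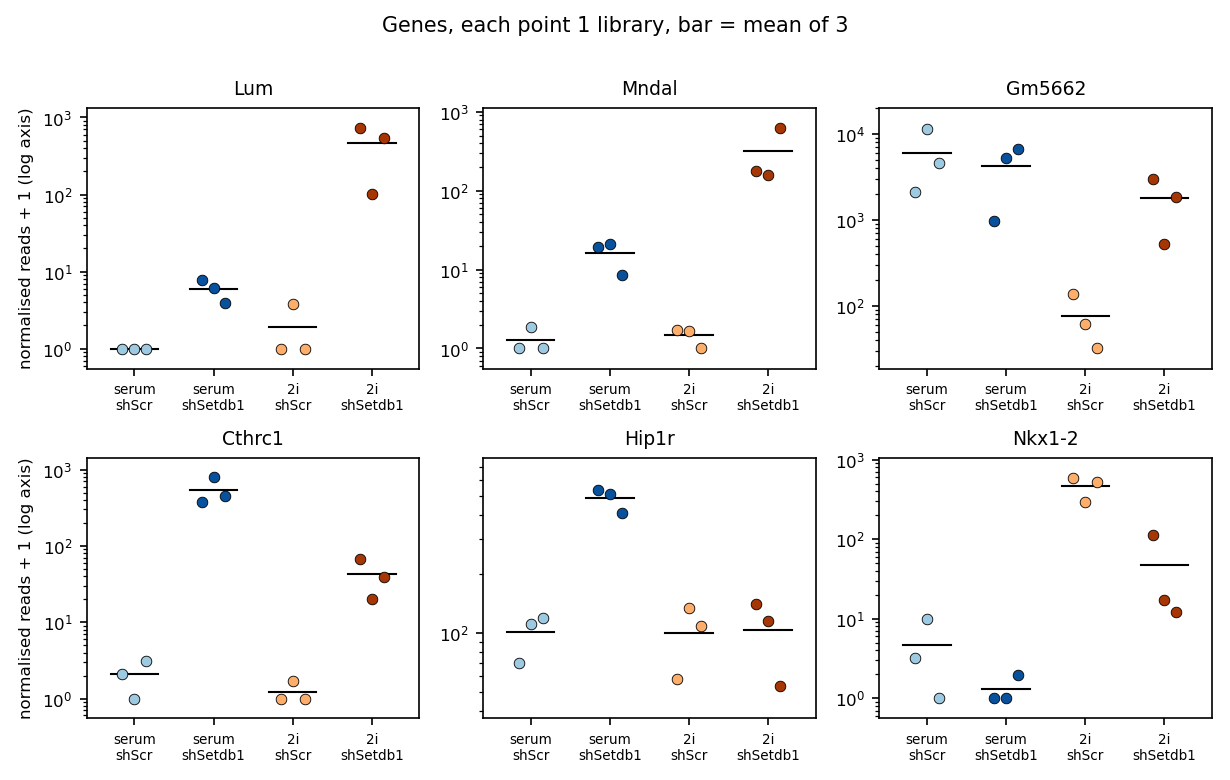
Normalised reads plus 1 (log axis) of 6 genes in each library, grouped by medium and shRNA, with a bar for the mean of 3. Lum and Mndal are high in the 2i knockdown alone, Gm5662 is low in the 2i controls alone, Cthrc1 is higher in the serum than in the 2i knockdown, Hip1r is high in the serum knockdown alone and Nkx1-2 is high in the 2i controls.

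Interferon-inducible genes included some with reads almost only in the 2i knockdown. Rtp4, a chaperone of membrane receptors induced by interferon, had 0 reads in 9 libraries and 68.4, 26.4 and 221 normalised reads in the 2i knockdown, with a difference of 2.47 (limma adjusted p = 1.0). Mx2, an antiviral GTPase, had 0 reads in the controls, 2.28, 10.1 and 2.88 normalised reads in the serum knockdown and 7.69, 23.4 and 77.4 in the 2i knockdown, with a difference of 0.92 (95% interval -0.16 to 1.99) and a rise in 2i that passed in 1 of 6 fits. Usp18, which removes ISG15, had 76.9, 0 and 205 in the 2i knockdown and 0 to 8.88 elsewhere, so 1 library of that group was silent. Of 28 interferon and double-stranded RNA sensing genes tested, 4 were higher and 1 lower in 2i at an unadjusted p under 0.05. Of all genes 1.65% were higher and 1.14% lower. The interferon list had a median of 0.39, with 21 of 28 positive and a range from -1.05 to 2.47, and none of its genes passed. The count higher was 7 without 2i knockdown replicate 2, 2 without 2i control replicate 1 or 2, and 1 without serum control replicate 2 or 2i knockdown replicate 3, where the median was 0.24 in the last. With library weights the median was 0.01, with 2 higher and 4 lower, beside 1169 and 1188 of all genes.

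Bst2, which tethers budding viruses, had 63.0, 57.7 and 109 normalised reads in the serum controls, 164, 113 and 270 in the serum knockdown, 11.6, 15.2 and 20.0 in the 2i controls and 107, 87.3 and 359 in the 2i knockdown. It rose in 2i (11.9-fold, 2 of 6 fits), and its difference was 1.08 (95% interval -0.19 to 2.34). Mndal, a member of the interferon-inducible Ifi200 family of DNA-binding proteins, had at most 0.888 in any control library, 18.3, 20.2 and 7.67 in the serum knockdown and 178, 155 and 625 in the 2i knockdown, with a difference of 2.58 (SE 0.57, limma adjusted p = 1.0). Mndal has close relatives in its gene cluster, among which reads may be split. The promoters of Bst2 and Mndal are shown because both genes hold the letters GAAANNGAAA, the core of the element bound by interferon-activated factors. The sequences are the 250 bases before the RefSeq start on GRCm38.p6, both on the minus strand, Bst2 at chr8:71537473-71537722 and Mndal at chr1:173880188-173880437 (the first of 2 entries). Capitals mark each match.
Bst2: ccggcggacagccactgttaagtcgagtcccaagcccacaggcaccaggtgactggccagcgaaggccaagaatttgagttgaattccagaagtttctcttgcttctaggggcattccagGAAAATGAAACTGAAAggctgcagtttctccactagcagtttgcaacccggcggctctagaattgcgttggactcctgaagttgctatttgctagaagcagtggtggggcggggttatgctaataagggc
Mndal: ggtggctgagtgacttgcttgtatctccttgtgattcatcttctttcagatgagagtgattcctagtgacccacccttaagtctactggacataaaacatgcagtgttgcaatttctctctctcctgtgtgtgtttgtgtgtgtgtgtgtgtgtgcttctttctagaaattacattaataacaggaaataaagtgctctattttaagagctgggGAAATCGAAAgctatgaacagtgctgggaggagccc

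Bst2 holds 2 overlapping matches and Mndal 1. On either strand, 978 of 32851 RefSeq promoter entries of this length hold a match (2.98%). Of the 20 tested interferon list genes that have an entry, 5 hold a match in any of their entries. The former count is of entries and the latter of genes, so the shares are not on the same unit. A match describes the letters only.

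Germline genes, a group that SETDB1 and DNA methylation are both known to repress, had a median difference of 0.43 over 52 tested genes. At an unadjusted p under 0.05, 4 of the 52 were higher in 2i, beside 239 of all 14487 genes (1.65%). The median was 0.83 with 15 higher without 2i knockdown replicate 1, 0.68 without serum knockdown replicate 3, 0.23 without 2i control replicate 1, 0.20 without serum knockdown replicate 1 and 0.14 without 2i knockdown replicate 2. Over all genes 695 were higher without 2i knockdown replicate 1. With library weights 22 germline genes were higher and 4 lower, beside 1169 and 1188 of all genes. With the structural RNA covariate the germline median was 0.19 with 3 on either side. Tex101, a germ cell surface protein, had 18.5, 9.77 and 15.0 normalised reads in the serum controls, 66.9, 113 and 227 in the serum knockdown, 0, 2.76 and 1.17 in the 2i controls and 283, 321 and 2696 in the 2i knockdown. It rose in 2i and its difference was 2.92 (95% interval 1.06 to 4.78), or 1.92 without 2i knockdown replicate 3. Mael, a piRNA pathway gene, ended at 369 to 459 in the 2i knockdown from 15.9 to 28.2 in the 2i controls, and went from 428 to 886 in the serum controls to 709 to 4384 in the serum knockdown. Its difference was 1.69, and the 2i controls were the lowest libraries. Tex15, a meiosis gene, rose 8.54-fold in serum and stood at 3.93-fold in 2i, with a difference of -1.16 (95% interval -2.52 to 0.20).

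Pluripotency genes gave medians of opposite sign for the primed and naive lists. The 17 tested genes of the primed epiblast had a median difference of -0.75, with 15 of them negative. At an unadjusted p under 0.05, 2 were lower, beside 1.14% of all genes: Sall2, a zinc finger gene, at -1.64 and T (Brachyury) at -1.84. T, also in the Wnt response and mesoderm lists, had at most 8.88 normalised reads in any serum library, too few for a like fall to show there. It fell in 2i, from 82.3, 65.5 and 175 in the controls to 36.1, 0 and 30.4 in the knockdown. The primed epiblast median was -1.60 without serum knockdown replicate 3, -1.34 without serum control replicate 2, -0.43 without serum knockdown replicate 2 and -0.37 without serum control replicate 3, where 5 were positive. Otx2, a transcription factor of the epiblast, stood at -1.38 (95% interval -3.56 to 0.80), and its serum controls alone ran from 70.6 to 609 normalised reads. For the 24 genes of naive pluripotency the median was 0.34. At that threshold 1 was higher, beside 1.65% of all genes: Jam2 at 1.14, followed by Klf2 at 0.77. No member of either list passed in either medium or for the difference. For ribosomal protein genes the median was 0.64, and 70 of 77 were positive, and for replication-dependent histone genes it was 0.61, with 55 of 62 positive. No member of these 2 lists had an unadjusted p under 0.05 on the deposited scale with all libraries. Without 2i knockdown replicate 1, 32 ribosomal protein and 21 histone genes were higher at that threshold, beside 695 of all 14487 genes. The 2 list medians were then 1.23 and 1.05, and without 2i knockdown replicate 3 they were 0.16 and 0.18. The ribosomal median was also 0.40 without serum knockdown replicate 1, 0.98 without serum knockdown replicate 3 and 0.96 without 2i control replicate 3, and the histone median 0.39 without 2i control replicate 2. With library weights 29 and 13 were higher, beside 1169 of all genes. With the structural RNA share as a covariate the 2 list medians were 0.16 and 0.31. That share was 19.9% in 2i knockdown replicate 1 and 69.5% in replicate 3. Rpl24 stood at 0.86 and Rpl34 at 1.26, and their 2i knockdown libraries alone spread from 1788 to 4369 and from 554 to 3966 normalised reads. Medians of the other gene lists lay between -0.41 (cholesterol synthesis) and 0.50 (trophoblast), each with 0 or 1 gene on either side at an unadjusted p under 0.05 and none passing.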

How the data were processed

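Total RNA of 12 libraries was sequenced after ribosomal RNA depletion. Per the submitters' processing notes, reads were handled with Trim Galore 0.3.3, TopHat2 2.0.9 and DESeq2, on build mm9. Not given in the sources used here are the counting tool, annotation, multi-mapping rule and use of strand. The authors deposited 1 table of genes and 1 of repeat families, as DESeq2 variance-stabilised values on a log2 scale, each table with its own size factors. Their steps gave whole reads back for 100% of values within a tolerance of 0.01 read, and these reads give the depths and the normalised reads per library. No column was left unmapped (0 in either table).

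Features with a mean at least 0.5 above the lowest value of their table were tested (14487 of 26061 genes and 1097 of 1217 families). The 4 groups were fitted together, without covariates, with limma 3.58.1 in R 4.3.3 with a mean-variance trend and 8 residual degrees of freedom. P-values were adjusted by Benjamini-Hochberg over each table at 0.05. Log2 changes are on the deposited scale, which understates changes of low features, and folds are ratios of mean normalised reads. The script was tested on simulated data. Depth covers counting error only.

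Named features were those with the largest or most significant differences, the strongest passing in both media or in 1, the 2 of each list with the smallest p, and a fixed list, of which the text names some. Members and lists were chosen with earlier results of these data known. Alternatives covered filters, trend, weights, scaling, voom on recovered reads, covariates, a replicate block and leaving out each library. Promoters came from RefSeq on GRCm38.p6, whose coordinates are not those of the files' build.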

Additional observations from a re-analysis of the deposited data

Results flagged for a closer look

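IAPLTR1_Mm and IAPEz-int were singled out because the knockdown change differed between the media by a test of that difference itself. For IAPLTR1_Mm the change in 2i exceeded that in serum by 2.38 on the log2 scale (limma adjusted p = 0.011), and for IAPEz-int by 2.28 (limma adjusted p = 0.0488). Every 2i knockdown library lay above every serum knockdown library for both. The families were picked by this difference in the same libraries, so that separation is no separate support for it. The 2 families come from related elements and are not independent of each other.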

How the results depend on the processing

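For the difference between media, the count of genes was 0, and became 1 with library weights (Cthrc1) and 2 with a replicate block within each medium (Gm5662 and Gm2016, limma adjusted p = 0.0202 each). It ranged from 0 to 1 when 1 library was left out (Lum without 2i knockdown replicate 2, limma adjusted p = 0.00362). The count of repeat families was 2, and became 1 without a filter and 0 without the trend, after centring, with quantile normalisation and with voom without structural RNA. It was 12 with the structural RNA covariate, 5 with replicates 1 and 2 alone, and 0 to 2 when 1 library was left out. Without the trend both IAP families had a limma adjusted p of 0.0561, and without a filter IAPEz-int had 0.0603. Same-numbered libraries of a medium had deviations that correlated at -0.025 to 0.582. For genes r was 0.582 (serum) and 0.456 (2i) in replicate 1, 0.51 and 0.524 in replicate 3, and 0.234 and 0.057 in replicate 2. Replicate 3 also had the largest structural RNA share of each group (48.3, 42.6, 64.6 and 69.5%). As not all were above 0.1, the numbers were not taken to pair samples. The main fit therefore leaves any shared replicate effect in its residual. Across media, same-numbered knockdown libraries correlated for genes at 0.497, 0.005 and 0.439 in replicates 1, 2 and 3. Controls did so at 0.232, -0.177 and 0.219. Fits with a replicate block were run as alternatives, and the source of such an effect was not tested. A replicate block gave 0 genes and 6 families for the difference, 171 genes and 63 families in serum and 321 genes in 2i, and a block within each medium gave 21 families for the difference.

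Within media, leaving out 1 library gave 37 to 116 genes and 26 to 42 families in serum, and 99 to 253 genes and 71 to 125 families in 2i. Voom gave 114 genes in 2i. The size factors of the gene table, an alternative chosen after seeing the data as was centring within media, gave 337 families in 2i.

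Some differences changed sign. Setdb1 ranged from -0.18 to 0.42 over the left-out libraries (-0.12 without serum control replicate 1, -0.07 without 2i control replicate 3, -0.18 without 2i knockdown replicate 1), Mmp12 was -0.73 with voom, IAPLTR3-int -0.081 with replicates 1 and 2 alone, and L1Md_T -0.20 with quantile normalisation. RLTR1B was -0.032 after centring, -0.29 with quantile normalisation, -0.19 with voom without structural RNA, and -0.063 to 0.66 over the left-out libraries (-0.063 without 2i control replicate 1, -0.026 without 2i knockdown replicate 3). ETnERV2-int was -0.28 with weights, -0.20 after centring, -0.64 with quantile normalisation, -0.42 with voom without structural RNA, and -0.33 to 0.42 over the left-out libraries, negative without serum control replicate 1 (-0.13), serum knockdown replicate 3 (-0.13), 2i control replicate 3 (-0.27) or 2i knockdown replicate 1 (-0.33). The cause of these changes was not tested. Of 67 calls within a medium among the named features, 47 held in all fits without 1 library of that medium.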
